A study of Oryzias latipes and Danio rerio with 6 samples.

Results

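The regions described here are those that iDamID-seq listed near the ends of zebrafish chromosomes in whole embryos at 80% epiboly, a late gastrula stage. A region was counted as lying at an end when its midpoint fell within 1 Mb of the start or the end of chromosomes 1 to 25. Regions of chromosome 4 that start at 25 Mb or beyond were left out, which removed the right end of that chromosome and left 49 ends. Of 35724 zebrafish regions in all, 3464 met this rule. They were 2059 of 8608 in the Taz positive list, 447 of 11025 in the Taz control list, 568 of 7553 in the Yap1 positive list and 390 of 8538 in the Yap1 control list.

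The groups were wild-type embryos injected with mRNA for DAM-zTaz, for DAM-zYap1 or for DAM-zGFP, with 1 sample in each. The fusions were made from injected mRNA and not from the promoter of the gene, and each replicate pooled 40 embryos, per the labels' protocols. The protocols name 3 replicates per sample, and the lists carry no values per replicate. The positive list of a factor belongs to its own sample, and both control lists belong to the Dam-GFP sample. No comparison between lists therefore has a replicate check, and the intervals below are 95% Wilson or order-statistic intervals that cover counting of regions only, while regions close to each other are not independent. Read depth was unknown. The control lists are named as negative lists beside the positive ones, and the positive and control list of a factor share no base. How the lists were called is not given. A control list can therefore not be taken as Dam-GFP background alone.

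Taz and Yap1 are the co-activators at the output of the Hippo pathway, which restrains growth when cells are crowded. They have no DNA-binding domain and reach DNA through partner proteins, above all the TEAD factors. In DamID the fused bacterial methylase marks GATC sites close to where the fusion touches chromatin, and Dam-GFP, which has no such partner, marks DNA that is open to any free methylase. Chromosome ends carry telomere repeats, and the subtelomeric DNA next to them is in many species rich in repeated and duplicated sequence.

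Taz positive regions were dense at the ends. The outermost Mb held 42.0 Taz positive regions per Mb, against 4.43 per Mb on the inner parts of the same chromosomes, a 9.48-fold density. In the Taz control list the densities were 9.12 per Mb at ends and 8.15 per Mb inside, a 1.12-fold density. Yap1 positive regions numbered 11.6 per Mb at ends and 5.07 per Mb inside, 2.29-fold, and Yap1 control regions 7.96 and 6.15 per Mb, 1.29-fold. As shares of the regions on assembled chromosomes without the chromosome 4 long arm, the ends held 27.3% of Taz positive regions (26.3 to 28.3) and 4.24% of Taz control regions (3.87 to 4.64). They held 8.28% of Yap1 positive (7.65 to 8.96) and 4.86% of Yap1 control regions (4.41 to 5.36), and 3.80% of the assembled length. Since Taz positive regions at ends lie close together, the share depends on the unit counted: with regions of a list merged within 10 kb it was 17.4% for Taz positive and 3.97% for Taz control, and within 50 kb 6.75% and 3.91%. For Yap1 positive and Yap1 control it was 7.65% and 5.11% within 10 kb, and 6.10% and 4.93% within 50 kb. The difference between the Taz and Yap1 positive shares was thus small under the 50 kb merge.

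In base pairs the positive lists again had the larger excess at ends, while both control lists were near parity. Taz positive regions covered 5.74% of the ends and 0.524% of the inner length, 10.9-fold, whereas Taz control regions covered 0.852% of the ends and 0.795% of the inner length, 1.07-fold. Yap1 positive regions covered 1.53% of the ends and 0.576% inside, 2.66-fold, and Yap1 control regions 0.789% and 0.740%, 1.07-fold. The Taz positive density at ends was above the inner density of the same chromosome on 25 of 25 chromosomes, by 4.96-fold on chromosome 22 to 15.1-fold on chromosome 19 with a median of 9.37-fold. For Taz control regions 13 of 25 chromosomes were above 1, with a median of 1.05-fold. Yap1 positive regions were denser at the ends on 24 of 25 chromosomes (median 2.15-fold), chromosome 8 being the exception at 0.959-fold, and Yap1 control regions on 19 of 25 (median 1.25-fold).

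Single ends were then compared. Each of the 49 ends held regions of all 4 lists. The Taz positive count was 11 at the lowest end, 40 at the median and 79 at the highest, against 2, 8 and 31 for Taz control regions. Taz positive regions outnumbered Taz control regions at 46 of 49 ends, equalled them at 1 and were fewer at 2. Over all 1277 whole 1 Mb windows of the same chromosomes, ends included, 20.3% had more Taz positive than Taz control regions, and over the 1228 inner windows 17.3%. At 44 ends the Taz positive count was at least 2 times, and at 31 ends at least 4 times, the Taz control count. The shares of all windows that reach these multiples were not computed, so the 44 and 31 ends have no base rate here.

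**Figure D1:**
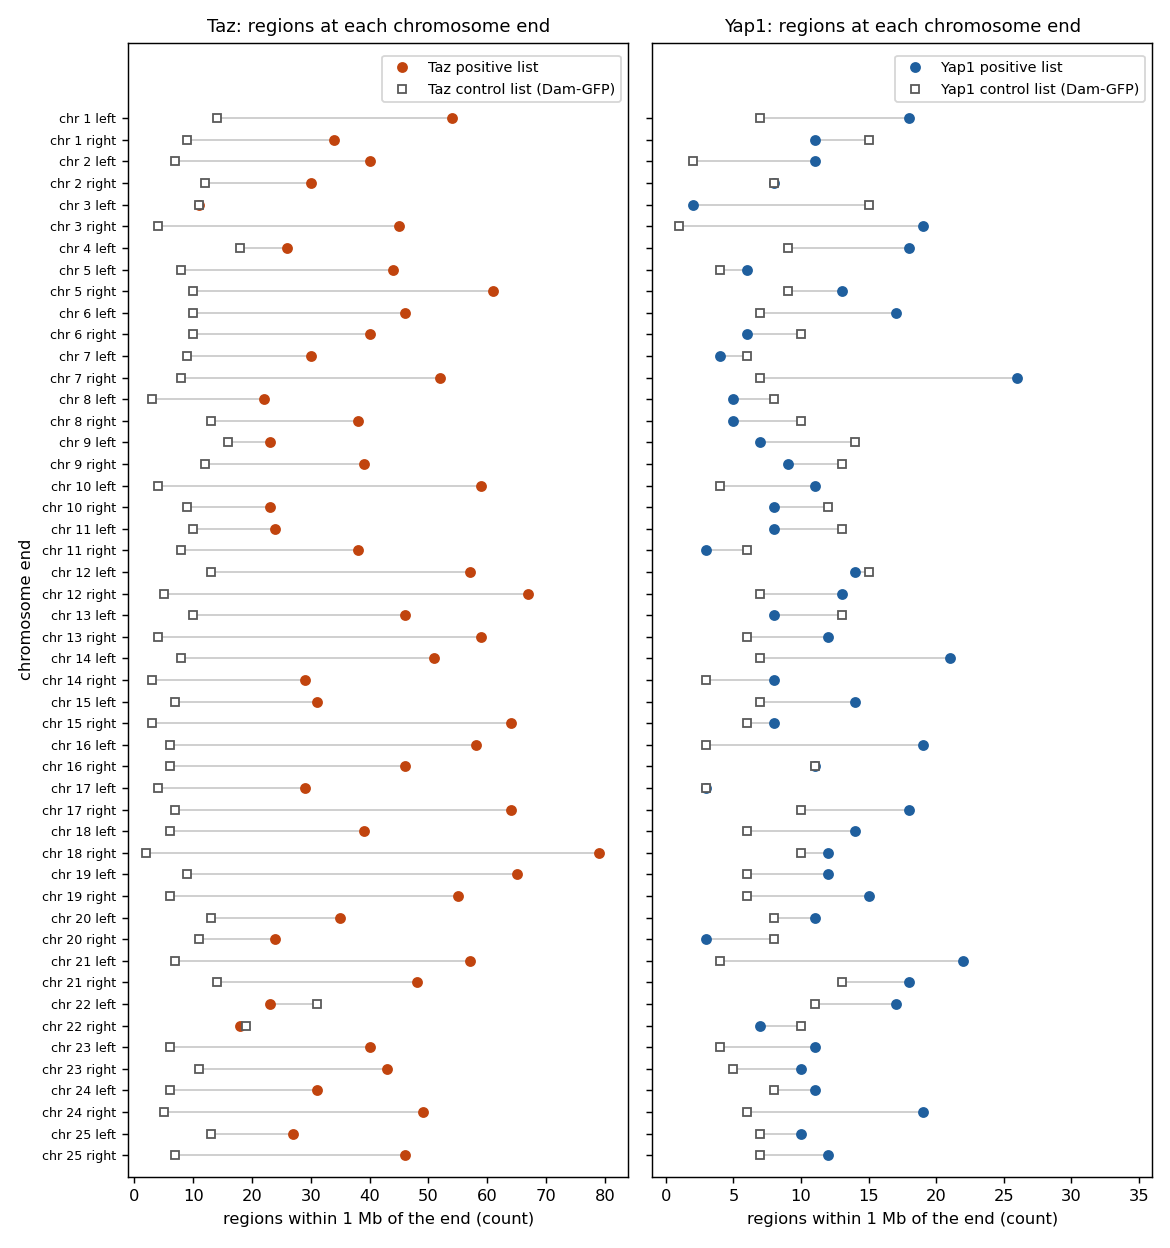
Regions within 1 Mb of each of 49 chromosome ends (count, x axis), with the Taz lists in the left panel and the Yap1 lists in the right panel, whose x axes differ in range. Filled circles are the positive list and open squares the Dam-GFP control list of that factor, joined by a grey line. Taz circles lie to the right of their squares at 46 of 49 ends, and Yap1 circles at 31 of 49.

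The 5 ends with the most Taz positive regions were the right ends of chromosomes 18, 12, 15 and 17 and the left end of chromosome 19. The chromosome 18 right end had 79 Taz positive and 2 Taz control regions, and Taz positive regions covered 12.4% of it. The chromosome 12 right end had 67 Taz positive and 5 control regions, the chromosome 19 left end 65 and 9, the chromosome 15 right end 64 and 3, and the chromosome 17 right end 64 and 7. At these 5 ends, in the order just given, Yap1 positive regions numbered 12, 13, 12, 8 and 18 and Yap1 control regions 10, 7, 6, 6 and 10. Yap1 positive regions exceeded Yap1 control regions there by 2 to 8.

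The fewest Taz positive regions lay at the chromosome 3 left end, with 11 Taz positive and 11 Taz control regions. The chromosome 22 right end followed with 18 and 19, the chromosome 8 left end with 22 and 3, and 3 ends had 23 Taz positive regions each. These were the chromosome 9 left end with 16 Taz control regions, the chromosome 10 right end with 9 and the chromosome 22 left end with 31. Both ends of chromosome 22 were thus the ends where control regions outnumbered Taz positive ones. On that chromosome Taz control regions were 2.87 times as dense at the ends as inside, the highest such value of the Taz control list, and Taz positive regions 4.96 times, the lowest of the Taz positive list.

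Relative to their mean, the counts of single ends had the lowest SD in the Taz positive list, which also had the highest mean count. The SD over 49 ends divided by the mean was 0.360 for Taz positive, 0.555 for Taz control, 0.479 for Yap1 positive and 0.449 for Yap1 control regions. From counting alone this ratio falls as the mean rises, and the means were 42.0, 9.12, 11.6 and 7.96 in the same order. The lists are therefore not ranked by it. The variance divided by the mean, a measure that grows with the level of the counts, was 5.45, 2.81, 2.66 and 1.60 in the same order, where independent placement would give about 1. The 5 richest ends of each list held 16.5% of its end regions for Taz positive, 21.9% for Taz control, 18.8% for Yap1 positive and 18.5% for Yap1 control, a share that also falls as counts rise. Ends with more Taz positive regions tended to have fewer Taz control regions, at Pearson r = -0.43 and Spearman rho = -0.39 over 49 ends, a description of ends that share 1 pair of lists. The Yap1 lists gave r = -0.18 and rho = -0.16. The positive and control list of a factor share no base, so their counts are not independent of each other. The part of this in the negative values was not tested.

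Yap1 positive regions exceeded Yap1 control regions at fewer ends. The Yap1 positive count was 2 at the lowest, 11 at the median and 26 at the highest end, against 1, 7 and 15 for Yap1 control regions. Positive regions were more numerous at 31 ends, equal at 3 and fewer at 15, so 63.3% of ends had more positive regions, where 40.5% of all 1277 windows did. The 3 richest ends were the chromosome 7 right end with 26 Yap1 positive and 7 Yap1 control regions, the chromosome 21 left end with 22 and 4, and the chromosome 14 left end with 21 and 7. The chromosome 3 left end, lowest for Taz, was also lowest for Yap1, with 2 Yap1 positive and 15 Yap1 control regions.

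Set among all windows, the ends made up nearly the whole upper range of the Taz list. Of the 50 windows with at least 23 Taz positive regions, 46 were chromosome ends. The richest inner window held 40, and 24 ends held more than that. In the Taz control list 4 of the 58 windows with at least 16 regions were ends. In the Yap1 positive list 16 of the 63 windows with at least 14 regions were ends, and no end exceeded the richest inner window, which held 28 regions. In the Yap1 control list 3 of the 63 windows with at least 15 regions were ends.

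The distance from the end was examined next, since a limit of 1 Mb cuts a gradient. Taz positive regions fell in number with distance: from the outermost 100 kb inward there were 382, 310, 262, 276, 165, 194, 144, 114, 110 and 102 regions per 100 kb bin, summed over 49 ends. Taz control regions numbered between 36 and 55 in every bin. Yap1 positive regions declined as well, with 112 in the outermost bin and 27 in the innermost. Yap1 control regions numbered 55 in the outermost bin and 24 in the innermost, so a decline was present in that control list too.

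Within the Mb, 67.8% of Taz positive regions (65.7 to 69.7) lay in its outer 500 kb, against 53.5% of Taz control regions (48.8 to 58.0). For Yap1 the shares were 69.9% of positive (66.0 to 73.5) and 59.5% of control regions (54.5 to 64.2). At 43 of 49 ends more Taz positive regions lay in the outer than in the inner 500 kb, and at 2 fewer. The Taz control list had 23 such ends against 18 of the opposite kind, the Yap1 positive list 36 against 11 and the Yap1 control list 32 against 13.

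The right end of a chromosome was placed at the last region over the 4 lists, which came from the Taz positive list on 19 of 25 chromosomes. That count includes chromosome 4, whose right end was left out. The outermost positions were therefore compared on the 25 left ends only, where position 0 of the assembly is the limit. There the Taz positive list began at a median of 17.0 kb from the end, with a range of 0.115 to 88.1 kb. The Taz control list began at a median of 93.2 kb (6.53 to 482), the Yap1 positive list at 26.3 kb (0.687 to 758) and the Yap1 control list at 70.0 kb (5.32 to 365). A region lay within 50 kb of the end at 23 of 25 left ends for Taz positive, 10 for Taz control, 16 for Yap1 positive and 9 for Yap1 control. Left ends alone had 72.0% of their Taz positive regions in the outer 500 kb.

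The Taz density went on falling beyond the limit of 1 Mb. Per Mb and end it was 42.0 in the first Mb, 12.7 in the second, 7.16 in the third and 3.29 in the tenth, while the Taz control list stayed between 7.18 and 9.45. Inner windows that began 1 to 2 Mb from an end had more Taz positive than control regions in 34 of 49 cases (69.4%), those from 2 to 3 Mb in 32.7%, and those beyond 10 Mb in 13.1%. The Yap1 positive density reached 5.08 per Mb in the second Mb, close to its inner mean of 5.07. From the third to the tenth Mb it lay below that mean, between 3.35 and 4.86. The share of windows with more Yap1 positive than control regions was 42.9% from 1 to 2 Mb and 32.7% from 2 to 3 Mb. It was 27.6% from 3 to 5 Mb and 41.6% beyond 10 Mb. Just inside the limit the last Taz positive region was 2616 bp long with a score of 223 (chromosome 14, 50944420 to 50947035), and just outside it lay one of 726 bp with a score of 115 (chromosome 13, 50776575 to 50777300). For Yap1 the pair were a region of 2380 bp with a score of 140 (chromosome 7, 73082365 to 73084744) and one of 754 bp with a score of 59 (chromosome 23, 45267194 to 45267947). In the control lists the scores went the other way, with 68 inside and 118 outside for Taz, and 57 and 87 for Yap1. The lengths were 2061 and 590 bp for Taz control and 618 and 697 bp for Yap1 control. These are single regions on different chromosomes and do not describe a change at the limit.

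**Figure D2:**
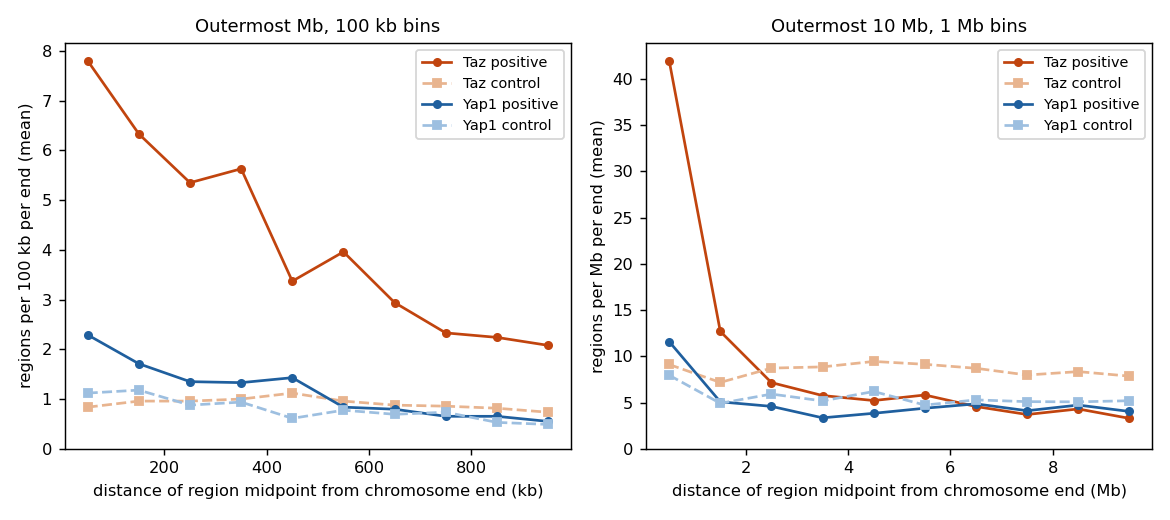
Mean number of regions per end as a function of the distance of the region midpoint from the chromosome end, in 100 kb bins over the outermost Mb (left) and in 1 Mb bins over the outermost 10 Mb (right). Solid lines are positive lists and dashed lines control lists, without error bars since there is 1 sample per group. The Taz positive line starts at 7.80 per 100 kb and ends at 2.08 in the left panel, and crosses below the Taz control line from the third Mb on in the right panel.

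Right and left ends were compared on the 24 chromosomes that have both. The sides are not measured alike: left ends start at position 0 of the assembly and right ends at the last listed region. That region was Taz positive on 19 of 25 chromosomes, a count that includes chromosome 4. The part of this last region in the right shares was not tested. Taz positive regions numbered 1091 at right ends and 942 at left ends, a right share of 53.7% (51.5 to 55.8). Taz control regions numbered 198 and 231 (46.2% right, 41.5 to 50.9), Yap1 positive regions 274 and 276 (49.8%, 45.7 to 54.0) and Yap1 control regions 199 and 182 (52.2%, 47.2 to 57.2). With ends of 0.5 Mb the Taz positive right share was 50.8%. It was 51.82% with regions merged within 10 kb, and 52.85% without the chromosome of largest difference. Per end, the outermost 100 kb held 8.88 Taz positive regions at right ends and 6.76 at left ends, where chromosome 4 is included. From 200 to 500 kb the left ends held more per end, and from 500 kb inward the right ends did. Right ends had more Taz positive regions on 14 chromosomes and fewer on 10, with a median difference, right minus left, of 11.5 regions.

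Single chromosomes had large differences in both directions. The median size of the difference between right and left was 16.0 Taz positive regions, 4.5 Taz control, 5.5 Yap1 positive and 4.0 Yap1 control regions. The right excess was largest on chromosome 18, with 79 Taz positive regions at the right and 39 at the left end, on chromosome 17 with 64 and 29, and on chromosome 3 with 45 and 11. The left excess was largest on chromosome 10, with 23 at the right and 59 at the left end, on chromosome 14 with 29 and 51, and on chromosome 1 with 34 and 54. These differences hold for the 1 Mb limit. The windows from 1 to 2 Mb of chromosomes 18, 17 and 3 held 21, 25 and 24 Taz positive regions. The last whole inner windows before the right ends of these chromosomes held 7, 7 and 6. On chromosomes 10, 14 and 1 such windows held 12, 16 and 6 at the left and 11, 8 and 8 at the right. These windows were laid from position 0, so those before right ends do not border the end and lie farther in than the left ones. On chromosome 14 the right end begins at 50944549, and the last whole inner window stops at 50000000. Taz positive density falls with distance from the end, and the part of this in the right values was not tested. Differences of single chromosomes over 2 Mb were not computed. Over the 24 chromosomes, the right and left Taz positive counts had Pearson r = 0.09 and Spearman rho = 0.11, a description of ends that share 1 list.

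As on chromosomes 18, 17, 10, 14 and 1, all 4 lists differed between sides on chromosome 3. Its right end had 19 Yap1 positive and 1 Yap1 control region, and its left end 2 and 15, which is the same direction as the Taz lists with 45 positive and 4 control regions at the right and 11 and 11 at the left. Yap1 positive regions followed the Taz positive direction on chromosome 17 too, with 18 at the right and 3 at the left end. They also did on chromosomes 10 (8 and 11), 14 (8 and 21) and 1 (11 and 18). Chromosome 18 differed, with 12 Yap1 positive regions at the right and 14 at the left end. Chromosome 15 was next in right excess and differed as well. Its right end had 64 Taz positive and 8 Yap1 positive regions, and its left end 31 and 14. Chromosome 16 was next in left excess and had the same direction in both positive lists. Its right end had 46 Taz positive and 11 Yap1 positive regions, and its left end 58 and 19.

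**Figure D3:**
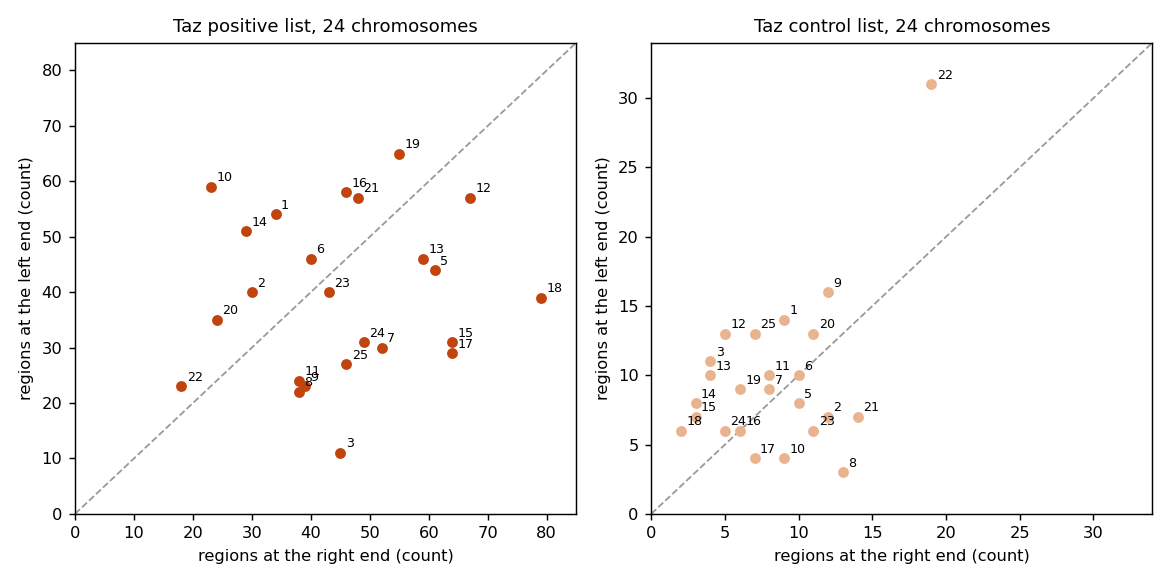
Regions at the right end (x axis, count) against regions at the left end (y axis, count) of 24 chromosomes, for the Taz positive list (left panel) and the Taz control list (right panel, smaller axis range). Each point is a chromosome labelled with its number, and the dashed line marks equal counts. Chromosomes 18, 17 and 3 lie farthest below the line and chromosome 10 farthest above it in the left panel, and chromosome 22 stands highest in the right panel with 19 right and 31 left regions.

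Taz positive regions at ends lay close together. Gaps shrink as regions become denser, and the list had 42.0 regions per Mb at ends and 4.43 per Mb inside. The spacing is therefore not separate from that density, whose part in it was not tested. The nearest region of the same list was 3.51 kb away at the median (quartiles 0.699 and 10.2 kb), against 44.7 kb for inner Taz positive regions (8.56 and 134). Of the end regions 74.5% (72.5 to 76.3) had a neighbour within 10 kb, against 27.1% (25.9 to 28.3) of inner regions. The Taz control list gave 30.9% at ends (26.8 to 35.3) and 22.4% inside (21.6 to 23.2). The Yap1 positive list gave 41.6% (37.6 to 45.6) and 31.6% (30.5 to 32.8), and the Yap1 control list 30.5% (26.2 to 35.2) and 37.4% (36.3 to 38.5), the only list with fewer close neighbours at ends than inside.

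Joining regions within 10 kb turned the 2059 Taz positive end regions into 977 clusters, and 87 clusters of 5 or more regions held 607 regions. On the inner 1239.4 Mb 9 such clusters held 58 regions. The largest lay at the right end of chromosome 8 (54110370 to 54189958), with 17 regions over 79.6 kb. It was followed by 15 regions over 61.3 kb at the right end of chromosome 18 (50868751 to 50930044) and 14 regions over 60.6 kb at the right end of chromosome 3 (62307180 to 62367786). Clusters of 5 or more numbered 1 at ends in the Taz control list, 6 in the Yap1 positive list and 1 in the Yap1 control list. Inside there were 4, 34 and 17 in the same order. The largest Yap1 positive cluster at ends was 7 regions at the right end of chromosome 7 (73914972 to 73956960), against 12 regions inside. Such clusters grow in number with the density of a list, so these counts are not separate from the density at ends.

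Positive regions had longer medians at ends than inside, and control regions shorter ones. The median length was 1072 bp at ends (1022 to 1112) and 944 bp inside (930 to 970) for Taz positive, and 1042 bp (934 to 1124) and 941 bp (917 to 963) for Yap1 positive, where the intervals overlap. The medians were 745 bp at ends (702 to 798) and 803 bp inside (793 to 809) for Taz control, where the intervals overlap too, and 785 bp (710 to 837) and 901 bp (879 to 925) for Yap1 control. Regions over 3000 bp made up 7.33% of Taz positive regions at ends and 4.26% inside, and 7.22% and 3.02% of Yap1 positive regions. In the control lists they made up 1.34% and 1.29% for Taz and 0.769% and 3.28% for Yap1. The longest end region of the 4 lists was a Taz positive region of 10374 bp at the right end of chromosome 16 (54595347 to 54605720, score 134).

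**Figure D4:**
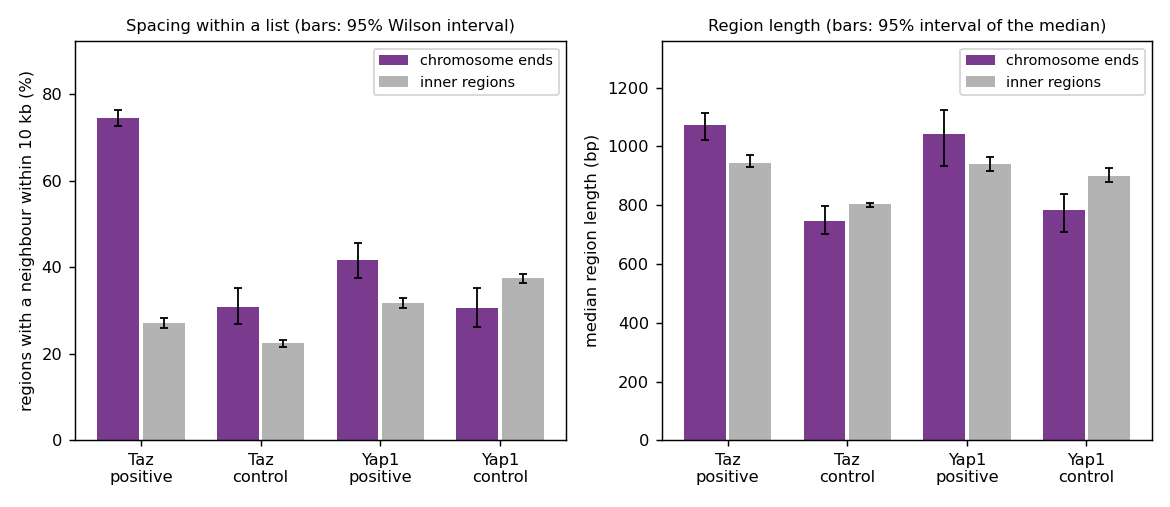
Share of regions with a neighbour of the same list within 10 kb (left, percent) and median region length (right, bp) in the 4 lists, with regions at chromosome ends in purple and inner regions in grey. Error bars are 95% Wilson intervals on the left and 95% order-statistic intervals of the median on the right, which cover counting only. The purple Taz positive bar stands at 74.5% in the left panel, against 27.1% for its grey bar.

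The authors' score is a whole number of unstated meaning. Its medians at ends and inside were close in the Taz lists and the Yap1 control list. In the Yap1 positive list the median was lower at ends, with intervals that do not overlap. Median scores were 109 at ends (107 to 113) and 105 inside (103 to 107) for Taz positive, and 91 (88 to 94) and 89 (89 to 90) for Taz control. Yap1 positive regions scored lower at ends, at 90 (85 to 94) against 98 (96 to 100) inside, and Yap1 control regions 76 (74 to 79) and 78 (77 to 78). Of the 100 top-scored regions, ends held 24 in the Taz positive list and 5 in the Taz control list, beside 27.3% and 4.24% of all regions of these lists. They held 4 of the top 100 in the Yap1 positive list and 1 in the Yap1 control list, beside 8.28% and 4.86%.

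The top-scored Taz end region lay at the left end of chromosome 5 (355911 to 357025, 1115 bp, score 715) and ranked at number 3 among the assembled regions of that list. The next lay at the right end of chromosome 12 (48533098 to 48533875, score 593), the left end of chromosome 10 (169832 to 172058, score 560), the right end of chromosome 25 (36187663 to 36191214, score 507) and the left end of chromosome 25 (26662 to 26953, score 505). Those on chromosomes 5 and 25 each overlapped a Yap1 positive region, and those on chromosomes 12 and 10 did not.

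The top-scored Yap1 end region lay at the left end of chromosome 16 (671776 to 673422, 1647 bp, score 693) and was not in the Taz positive list. The other 4 each overlapped a Taz positive region. They lay at the right end of chromosome 9 (56601208 to 56602989, score 550), and at the left ends of chromosomes 21 (682199 to 682989, score 482), 18 (358465 to 359223, score 451) and 25 (562249 to 562958, score 389).

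The 4 lists were last set against each other. Both control lists belong to the same Dam-GFP sample, and the positive lists are named beside them. An overlap between a Taz and a Yap1 list is therefore a value of these lists and not independent evidence for either factor. At ends 14.5% of Taz positive regions met a Yap1 positive region, and 49.8% of Yap1 positive regions met a Taz positive region, against 27.6% and 24.3% of inner regions. The Taz and Yap1 positive lists held 2059 and 568 regions at ends, and 5491 and 6288 inside. Such shares depend on the sizes of both lists, whose part here was not tested. In the control lists 29.8% of Taz control end regions met a Yap1 control region and 33.8% of Yap1 control end regions met a Taz control region, against 30.5% and 40.5% inside. No positive region overlapped a region of its own control list, at ends or inside. Since these are named as the positive and negative lists of a factor, this can follow from how they were made. It is not a result about the ends. Of the 390 Yap1 control regions at ends, 12 met a Taz positive region (3.08%, 1.77 to 5.30), against 0.498% of inner ones (0.363 to 0.683). From the other side, 11 of 2059 Taz positive end regions met a Yap1 control region (0.534%, 0.299 to 0.954), against 0.710% of inner ones (0.520 to 0.969). Taz positive regions cover 10.9 times as large a share of the ends as of the inner length, and the part of that density in these overlaps was not tested. Only 1 of 568 Yap1 positive end regions met a Taz control region.

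The longest stretches in both positive lists at ends were 6774 bp at the left end of chromosome 20 (153478 to 160251), 4778 bp at the right end of chromosome 23 (46264701 to 46269478) and 4359 bp at the right end of chromosome 19 (48191631 to 48195989). They were followed by 3946 bp at the left end of chromosome 8 (855286 to 859231) and 3581 bp at the left end of chromosome 20 (303896 to 307476). No genome or gene annotation of GRCz10 was used here, so the regions are given by position only and were not tied to genes, GATC density or repeats, whose part in the results was not tested.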

How the data were processed

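The values are the deposited region lists of zebrafish iDamID-seq, 1 positive and 1 control list per factor. Genomic DNA was digested with DpnII and DpnI, adapters were ligated and fragments were amplified by 25 PCR cycles, per the labels' protocols. cutadapt, Bowtie2, SAMtools and bedtools and the build GRCz10 (danRer10) are named in the submitters' processing notes, without versions. The caller, its thresholds and any pooling of replicates are not given in the sources used here, nor are read counts. The deposited score is the authors' and was used only within a list or a factor's pair of lists. Control lists were paired with factors by the name of the list.

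From these, counts, shares, densities, gaps and overlaps of at least 1 bp were computed with Python 3.11.15, numpy 2.4.6, pandas 2.3.3 and scipy 1.17.1. Chromosome lengths were the largest region end over the 4 lists, a lower bound of the true length. Distances used region midpoints, with chromosome 4 measured from its left end. No test was run, since each group is 1 sample. Members, limits and named regions were chosen with earlier results of these data known. Named ends were the 5 with the most and the fewest Taz positive regions (ties included), the 3 richest for Yap1 and the 3 largest differences in each direction between sides. The next difference in each direction, on chromosomes 15 and 16, was added to these. Named regions were the 5 of highest score and the 5 longest shared. Placement, merging and overlap were tested on simulated data. Every region of the simulated overlap check had an overlap by design, so overlaps called in excess would not have been seen. Alternatives were end width, merging, score and length filters, overlap rule and gap limit. Those for the distance were added after seeing the data.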

Additional observations from a re-analysis of the deposited data

How the results depend on the processing

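Of 110 values under alternatives, 72 stayed within the counting interval of the reported value, or within 1.5 times for counts of ends, and 38 moved out of it, without any list pair changing order in its share at ends. With ends of 0.5 Mb the end share was 18.5% for Taz positive, 2.27% for Taz control, 5.79% for Yap1 positive and 2.89% for Yap1 control, and with 2 Mb 35.5%, 7.58%, 11.9% and 7.87%. Merging within 10 kb gave 17.4% for Taz positive and 7.65% for Yap1 positive, and within 50 kb 6.75% and 6.10%, beside 3.91% and 4.93% for the Taz and Yap1 control lists, since merging removes close regions by construction. The top-scored part of each list gave 28.7% for Taz and 7.27% for Yap1 positive. The Taz positive right share was 50.8% with ends of 0.5 Mb. More Taz positive than control regions lay at 47 to 49 ends and more Yap1 positive ones at 34 or 35 under division by list size, merging within 10 kb and base pairs. The shares of all windows under these alternatives were not computed, so these counts of ends have no base rate here. The overlap of Taz with Yap1 positive end regions was 8.60% with 50% of both regions, 4.52% with equal edges and 23.2% after merging, and of Yap1 with Taz positive 31.2%, 16.4% and 56.6%. For Taz control it was 24.6% and 20.8% under the stricter rules, and for Yap1 control 28.2% and 23.9%, with 38.8% after merging. The median Taz positive length without regions under 300 bp was 1130 bp. Neighbours within 5 kb were found for 57.9%, 20.1%, 28.9% and 18.0% of Taz positive, Taz control, Yap1 positive and Yap1 control end regions, and within 50 kb for 97.3%, 66.4%, 79.1% and 63.3%. In the outer 500 kb lay 72.0% of Taz positive regions on left ends alone, and after merging 58.7% of Taz and 65.3% of Yap1 positive clusters. Chromosome lengths from a genome, base composition and genes were not run. No paired analysis was possible because each group is 1 sample. Depth is unknown.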

Other observations

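Taz positive regions were also dense in a few inner windows, chosen after their values were seen. The window from 5 to 6 Mb of chromosome 18 held 40 Taz positive and 10 Taz control regions and 15 Yap1 positive and 4 Yap1 control regions. That chromosome also has the end richest in Taz positive regions, at its other side. The next 5 windows, with 21 to 25 Taz positive regions, began within 1.27 Mb of an end. On chromosomes 17, 3, 16 and 18 this was the left end, and on chromosome 23 the right end. Away from ends, the window from 26 to 27 Mb of chromosome 1 held 20 Taz positive and 12 Taz control regions.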
